A study of Homo sapiens with 12 samples.

Results

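The 10 genes described here are 6 transcription factors of the epithelial-to-mesenchymal transition (EMT), SNAI1, SNAI2, TWIST1, TWIST2, ZEB1 and ZEB2, and 4 mesenchymal markers, VIM, CDH2, CDH11 and FN1. They were chosen by symbol, and all 10 were found among the 58302 genes of the count table and were among the 18035 genes that passed the filter on low counts. The series measured RNA by sequencing in a mesothelioma line and in a line derived from it that is labelled resistant to blocking TEAD, the DNA-binding partner of YAP. NCI-H226, a human mesothelioma line that the growth protocol calls NF2 null, was the sensitive line, and NCI-H226_CL3, which the growth protocol describes as grown under a TEAD small-molecule inhibitor raised stepwise from 0.25 to 3 µM, was the resistant line. Each line was given either the solvent DMSO or the TEAD inhibitor GNE-7883, with 3 libraries in each of the 4 groups, so the loss of NF2 was shared by every group and by the controls. Neither the dose and duration of GNE-7883 in the profiled cultures, nor whether NCI-H226_CL3 is a single clone, is stated in the labels. The contrast between lines therefore compares 1 derived line with its parent, and the series title places it in a study of Hippo and MAPK signalling in acquired resistance.

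EMT is the programme by which cells loosen epithelial junctions and take on a motile shape. SNAIL, TWIST and ZEB family factors bind E-box DNA and repress junction genes such as CDH1, and they raise genes of the cytoskeleton and matrix. Mesothelial cells come from mesoderm and hold both keratins and vimentin in culture, so mesenchymal markers are present in them before any transition, and mesothelioma ranges from epithelioid to sarcomatoid growth.

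The libraries held 31878934 to 46962645 counts. The labels give the tissue as epithelial lung and the cells as mesothelioma. Markers of lung epithelium summed to 2.55 to 7.45 CPM (counts scaled to the TMM-adjusted library total) in every library, with SCGB3A2 at 0 counts in all 12. In contrast, 11 of 12 mesothelial markers reached 1 CPM in each group. Over the groups in the order sensitive DMSO, sensitive GNE-7883, resistant DMSO and resistant GNE-7883, the mesothelial sum was 4160 to 4510, 4490 to 4700, 2110 to 2170 and 2440 to 2550 CPM. In the same order the fibroblast sum was 941 to 1020, 614 to 686, 527 to 627 and 646 to 742 CPM. The endothelial sum was 49.4 to 63.8, 180 to 196, 22.9 to 24.2 and 32.2 to 35.3 CPM, most of it KDR (54.5, 185, 21.4 and 31.6 CPM on average), with EMCN at 0 throughout. Blood markers summed to 0.671 to 6.76 CPM with CD3E and CD68 at 0. In the resistant line in DMSO, 10 of 12 mesothelial markers fell and 1 rose, and 5 of 7 tested fibroblast markers fell and none rose, beside 24.4% of all tested genes fallen and 24.2% risen. GNE-7883 in sensitive cells, where TWIST2, ZEB2, VIM, CDH2 and CDH11 changed, came with a higher endothelial and a lower fibroblast sum. The part of these other marker lists in the results below was not tested. CCN2, a direct YAP and TEAD target, stood at 64.1, 65.3 and 63.5 CPM in sensitive cells in DMSO and at 8.74, 8.16 and 8.57 CPM with GNE-7883, and at 107, 98.8 and 101 CPM against 67.5, 69.8 and 70.6 CPM in resistant cells. Sensitive DMSO replicate 2 stood apart, with a spread of log2 deviations from its group's mean of 0.18 against 0.0956 to 0.118 in the libraries of the other 3 groups. Relative to the other 2 libraries of its group it was lower by log2 for ZEB1 (-0.64), FN1 (-0.51), ZEB2 (-0.49), CDH11 (-0.28) and CDH2 (-0.22) and higher for TWIST2 (0.33) and VIM (0.26). The called differences of the 10 genes that use it are also given without it. Values of other genes, list counts and chromosome 10 counts below are given with all libraries only.

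On the length-scaled RPKM values (counts scaled to gene length and library total), which allow genes to be set side by side, VIM was the most abundant of the 10 in all 4 groups, at 442 ± 49.6 RPKM (SD, n = 3) in sensitive and 1133 ± 17.4 RPKM in resistant cells in DMSO. The 2 cadherins followed, CDH2 at 121 ± 9.89 and CDH11 at 88.7 ± 9.22 RPKM in sensitive DMSO cells. The 6 factors and FN1 all lay below 10 RPKM there, from 6.42 ± 1.49 for ZEB1 down to 1.69 ± 0.314 for ZEB2, and the libraries of neighbouring genes overlapped for ZEB1 with TWIST2, SNAI2 with FN1, FN1 with SNAI1 and SNAI1 with ZEB2. SNAI2 held rank 7 in sensitive DMSO cells at 2.58 ± 0.26 RPKM. It was the fourth most abundant in the resistant line, at 33.9 ± 1.99 RPKM in DMSO and 28.7 ± 0.754 RPKM with GNE-7883, clear of its neighbours CDH11, CDH2 and FN1 in both. SNAI1 was the lowest of the 10 in the other 3 groups, between 0.918 ± 0.054 and 1.43 ± 0.27 RPKM.

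**Figure D1:**
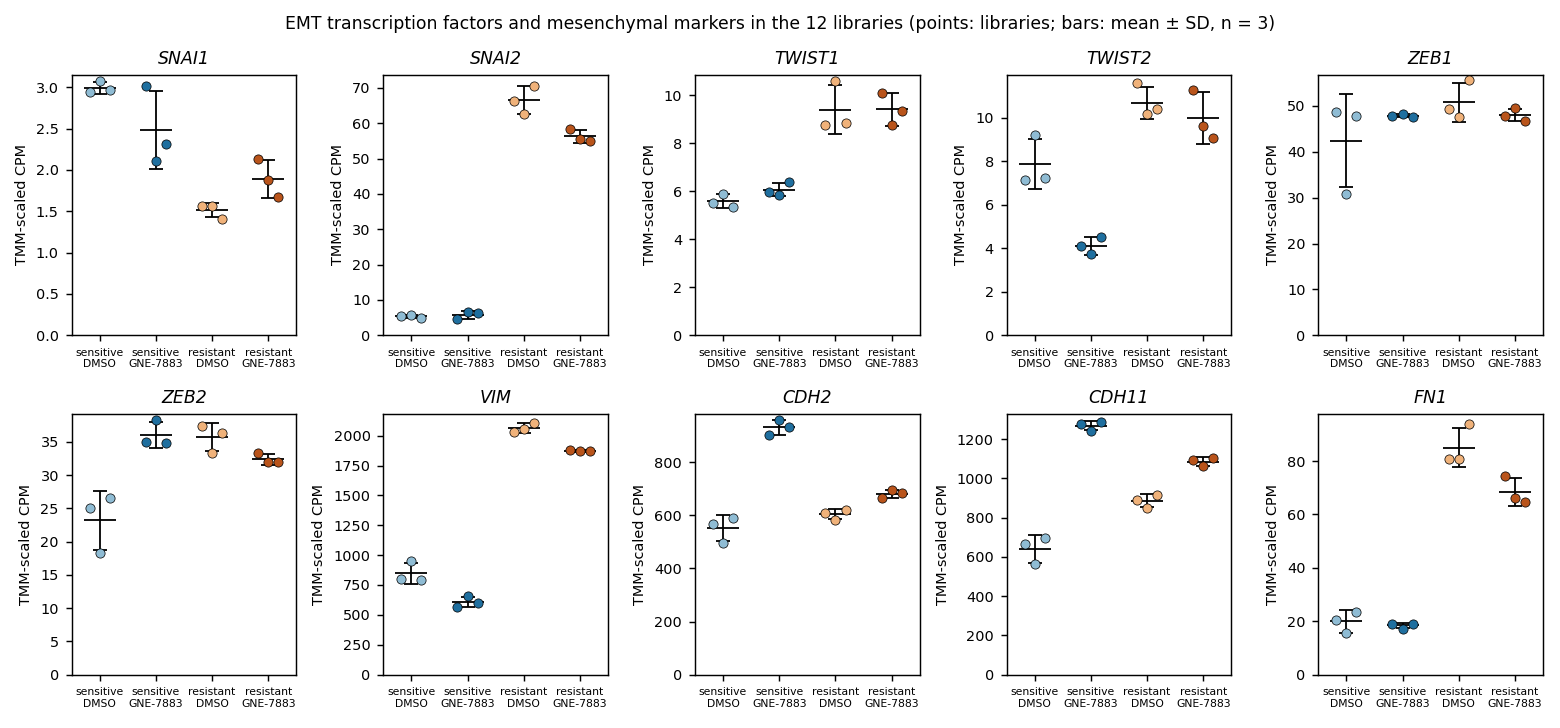
Level of each of the 10 genes in TMM-scaled CPM (y axis, starting at 0, its own scale for each gene) in the 4 groups (x axis); each point is 1 of 3 libraries and the bars are mean ± SD. SNAI2, TWIST1, VIM and FN1 separated the lines whatever the treatment, whereas CDH2 and CDH11 were highest in sensitive cells given GNE-7883.

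Without the inhibitor, the resistant line held more of most of these genes. SNAI2, FN1 and VIM led, 12.4-fold, 4.29-fold and 2.43-fold higher than in the sensitive line, TWIST1, TWIST2, ZEB2 and CDH11 were higher by less, and SNAI1, the paralogue of SNAI2, was lower. By edgeR's quasi-likelihood test with adjustment over all tested genes, 7 of 10 rose, 1 fell and ZEB1 and CDH2 were not called, beside 48.7% of all tested genes called, 24.2% as risen and 24.4% as fallen. The median log2 difference of the 10 was 0.54 and that of all tested genes 0.00. In a bulk culture a lower share of cells that express a gene and less RNA per cell cannot be told apart. Nothing in the labels ties libraries to separate cultures, so p-values reflect only how libraries scattered within groups, possibly for technical reasons. In the main fit all 4 groups share an estimate of this scatter for each gene. A library outside a comparison can therefore change its p-value. The 5 comparisons below share groups of libraries and are not independent of each other.

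Among the SNAIL factors, SNAI2 (SLUG; chr8:48917604-48921740, GENCODE 29, GRCh38) is a zinc-finger repressor also active in neural crest and stem-like cells. Its 3 sensitive DMSO libraries held 5.42, 5.78 and 4.79 CPM and its resistant DMSO libraries 66.3, 62.7 and 70.5 CPM. With GNE-7883 the values were 4.56, 6.56 and 6.34 CPM in sensitive and 58.3, 55.5 and 55.0 CPM in resistant cells. Every resistant library stood far above every sensitive library, and within the sensitive line the treated and untreated libraries overlapped. The log2 difference between lines was 3.64 ± 0.11 (SE; adjusted p = 2.33e-13) in DMSO and 3.27 ± 0.11 (adjusted p = 3.61e-13) with GNE-7883. The DMSO difference was 3.70 without sensitive DMSO replicate 2 (adjusted p = 1.44e-16). The inhibitor gave 0.12 ± 0.12 (adjusted p = 0.402) in the sensitive and -0.24 ± 0.089 (adjusted p = 0.112) in the resistant line. All 3 treated resistant libraries lay below the 3 untreated ones, and the second value passed the threshold without sensitive DMSO replicate 2 (adjusted p = 0.0244), in the fit on the 2 resistant groups alone (adjusted p = 0.011) and without sensitive GNE-7883 replicate 1, which also brought the sensitive response past it (adjusted p = 0.0341).

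SNAI1 (SNAIL; chr20:49982999-49988886), the founding repressor of CDH1, moved the other way and at low levels. It stood at 2.94, 3.07 and 2.96 CPM in sensitive and 1.56, 1.56 and 1.41 CPM in resistant DMSO libraries. These groups did not overlap, and the difference was -0.98 ± 0.15 on the log2 scale (adjusted p = 4.24e-05), or -0.95 without sensitive DMSO replicate 2 (adjusted p = 6.59e-05). With GNE-7883 it stood at 3.01, 2.11 and 2.31 CPM in sensitive and 2.13, 1.88 and 1.67 CPM in resistant cells, groups that overlapped. There the difference of -0.38 ± 0.15 passed narrowly (adjusted p = 0.0333) and lost its call under 11 of 19 alternatives, DESeq2 and both RPKM fits among them, with adjusted p from 0.0156 to 0.239. The libraries whose removal ended it were sensitive GNE-7883 replicate 1, each of the 3 resistant DMSO libraries, and resistant GNE-7883 replicates 2 and 3. The inhibitor's own values were -0.27 ± 0.14 (adjusted p = 0.11) in the sensitive line, called without GNE-7883 replicate 1 (adjusted p = 0.0181), and 0.33 ± 0.15 (adjusted p = 0.23) in the resistant line.

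The TWIST pair are basic helix-loop-helix factors of mesoderm. TWIST1 (chr7:19020991-19117672) held 5.51, 5.90 and 5.34 CPM in sensitive and 8.78, 10.6 and 8.84 CPM in resistant DMSO libraries, and the corresponding GNE-7883 libraries held 5.95, 5.86 and 6.37 CPM and 10.1, 8.78 and 9.36 CPM. The lines did not overlap under either condition, and the log2 difference was 0.75 ± 0.096 (adjusted p = 8.28e-06) in DMSO and 0.64 ± 0.096 (adjusted p = 2.83e-05) with the inhibitor. The inhibitor gave 0.12 ± 0.10 (adjusted p = 0.336) in the sensitive and 0.00 ± 0.092 (adjusted p = 0.993) in the resistant line. TWIST2 (DERMO1; chr2:238848032-238910543) behaved otherwise: GNE-7883 lowered it in the sensitive line, from 7.15, 9.21 and 7.25 CPM to 4.12, 3.72 and 4.54 CPM. It fell there by 0.93 ± 0.13 on the log2 scale (adjusted p = 1.18e-05), with no overlap between the groups. In the resistant line the libraries overlapped, at 11.6, 10.2 and 10.4 CPM in DMSO and 11.3, 9.61 and 9.06 CPM with GNE-7883, a change of -0.10 ± 0.11 (adjusted p = 0.684). The difference between lines was 0.45 ± 0.11 (adjusted p = 0.00424) in DMSO and 1.28 ± 0.12 (adjusted p = 2.03e-07) with the inhibitor. Without sensitive DMSO replicate 2, TWIST2 fell by 0.80 in sensitive cells (adjusted p = 7.96e-06) and stood 0.58 higher in the resistant line in DMSO (adjusted p = 0.000128), and TWIST1 stood 0.80 higher there (adjusted p = 2.26e-06).

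The ZEB pair are zinc-finger and homeodomain repressors held in check by the miR-200 family. ZEB2 (chr2:144364364-144524583) rose with GNE-7883 in the sensitive line, from 25.0, 18.2 and 26.5 CPM to 35.0, 38.2 and 34.8 CPM, by 0.63 ± 0.11 on the log2 scale (adjusted p = 8.54e-05). In the resistant line it already stood at 37.3, 33.3 and 36.3 CPM in DMSO and was at 33.3, 31.9 and 31.9 CPM with GNE-7883. The treated sensitive libraries lay near those of the resistant line: the lines differed by 0.62 ± 0.10 (adjusted p = 0.000138) in DMSO and by -0.15 ± 0.10 (adjusted p = 0.214) with the inhibitor. Without sensitive DMSO replicate 2, the ZEB2 rise in sensitive cells was 0.48 (adjusted p = 3.77e-06) and the difference between lines in DMSO 0.47 (adjusted p = 5.68e-06). The difference between lines with the inhibitor passed without it (adjusted p = 0.0388) and in the fit on those 2 groups (adjusted p = 0.0287). ZEB1 (chr10:31318495-31529814) showed no called difference. Its libraries held 48.6, 30.8 and 47.9 CPM in sensitive DMSO cells, 47.7, 48.3 and 47.6 CPM in sensitive GNE-7883 cells, 49.4, 47.5 and 55.6 CPM in resistant DMSO cells and 47.9, 49.5 and 46.8 CPM in resistant GNE-7883 cells. Sensitive DMSO replicate 2 was the one low library of the 12. The difference between lines in DMSO was 0.26 ± 0.12 (adjusted p = 0.0941), called in both RPKM fits, with no filter and without sensitive DMSO replicate 1 (adjusted p = 0.0258) or 3 (adjusted p = 0.0392). The response of ZEB1 to the inhibitor in sensitive cells was 0.17 ± 0.12 (adjusted p = 0.242) with all libraries and -0.02 without replicate 2.

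**Figure D2:**
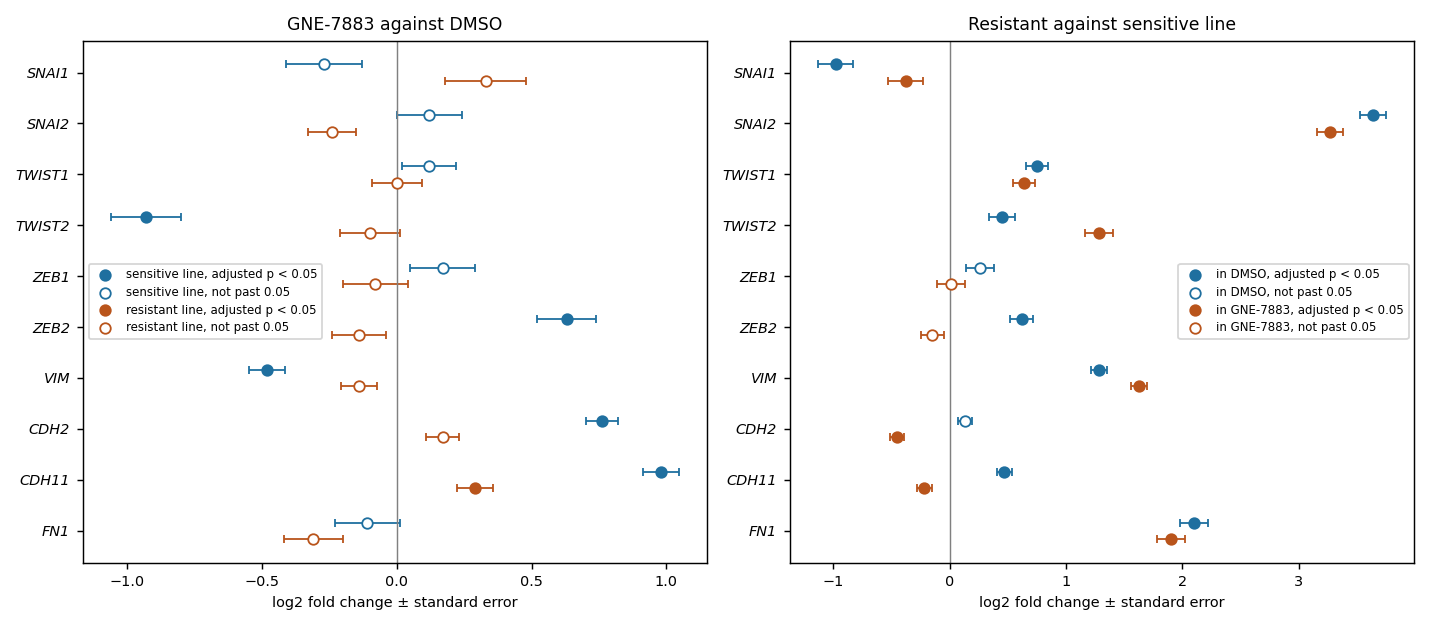
Log2 difference of each of the 10 genes (points, with the standard error as bars) for GNE-7883 against DMSO in each line (left) and for the resistant against the sensitive line in each treatment (right); filled points passed an adjusted p of 0.05 in edgeR and open points did not. The resistant line stood 3.64 above the sensitive line for SNAI2 in DMSO, and GNE-7883 raised CDH11 by 0.98 in sensitive and by 0.29 in resistant cells.

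Of the markers, VIM encodes vimentin, the intermediate filament of mesenchymal cells (chr10:17228259-17237593). Its libraries held 800, 950 and 792 CPM in sensitive and 2031, 2054 and 2106 CPM in resistant DMSO cells. With GNE-7883 they held 569, 656 and 595 CPM in sensitive and 1884, 1868 and 1875 CPM in resistant cells. None of the 4 groups overlapped. VIM was higher in the resistant line by 1.28 ± 0.068 (adjusted p = 2.59e-10) in DMSO and by 1.63 ± 0.069 (adjusted p = 8.47e-12, 3.09-fold) with the inhibitor. It fell by 0.48 ± 0.067 with GNE-7883 in sensitive cells (adjusted p = 1.46e-05). Without sensitive DMSO replicate 2 the line difference in DMSO was 1.38 (adjusted p = 5.77e-15) and the change in sensitive cells -0.40 (adjusted p = 4.59e-07). In resistant cells the change was -0.14 ± 0.067 (adjusted p = 0.244), which passed without sensitive DMSO replicate 2 (adjusted p = 0.0326) and in the fit on the 2 resistant groups (adjusted p = 0.022).

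FN1 encodes fibronectin, a matrix protein bound by integrins (chr2:215360440-215436172). Sensitive libraries held 20.6, 15.4 and 23.6 CPM in DMSO and 19.0, 17.2 and 18.8 CPM with GNE-7883, and resistant libraries 80.7, 80.9 and 93.8 CPM and 74.3, 66.3 and 64.5 CPM. The lines were apart under both conditions, by 2.10 ± 0.12 (adjusted p = 5.47e-10) and 1.90 ± 0.12 (adjusted p = 1.03e-09, 3.72-fold), the first 1.95 without sensitive DMSO replicate 2 (adjusted p = 7.65e-14). The resistant libraries given the inhibitor all lay below those in DMSO, a change of -0.31 ± 0.11 (adjusted p = 0.0933) that was called without sensitive DMSO replicate 2 (adjusted p = 0.00232), with no filter (adjusted p = 0.00223) and in the fit on the 2 resistant groups (adjusted p = 0.00854). In sensitive cells the change was -0.11 ± 0.12 (adjusted p = 0.455) with all libraries, -0.27 without DMSO replicate 2 (adjusted p = 0.0119) and 0.02 without DMSO replicate 3.

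The mesenchymal cadherins, calcium-dependent adhesion molecules that replace CDH1 during EMT, stood highest in sensitive cells given the inhibitor. CDH2 (N-cadherin; chr18:27950966-28177446) held 568, 497 and 591 CPM in sensitive DMSO and 903, 959 and 933 CPM in sensitive GNE-7883 libraries. In the resistant line it held 609, 584 and 622 CPM in DMSO and 665, 695 and 684 CPM with GNE-7883. CDH11 (OB-cadherin; chr16:64943753-65126112) held 667, 561 and 696 CPM in sensitive DMSO and 1277, 1242 and 1287 CPM in sensitive GNE-7883 libraries. No library of another group reached the treated sensitive cells for either gene. In the resistant line CDH11 held 892, 851 and 915 CPM in DMSO and 1093, 1063 and 1102 CPM with GNE-7883. GNE-7883 raised CDH11 in both lines, by 0.98 ± 0.066 (adjusted p = 3.58e-09) in sensitive and 0.29 ± 0.065 (adjusted p = 0.00993) in resistant cells, the latter at an adjusted p of 0.0546 without resistant GNE-7883 replicate 3. It raised CDH2 by 0.76 ± 0.06 (adjusted p = 2.6e-08) in sensitive cells, and the value in resistant cells was 0.17 ± 0.06 (adjusted p = 0.0912), called without sensitive DMSO replicate 2 (adjusted p = 0.00365) and in the fit on the 2 resistant groups (adjusted p = 0.0112). Without sensitive DMSO replicate 2, the rises in sensitive cells were 0.89 for CDH11 (adjusted p = 4.24e-13) and 0.68 for CDH2 (adjusted p = 5.29e-11), and CDH11 stood 0.38 higher in the resistant line in DMSO (adjusted p = 1.65e-07). The sign of the line difference turned with the treatment. In DMSO the resistant line was higher for CDH11, by 0.47 ± 0.065 (adjusted p = 2.13e-05), with CDH2 at 0.13 ± 0.06 (adjusted p = 0.0782, but 0.0114 and 0.0113 in the RPKM fits and 0.0249 without sensitive DMSO replicate 3). With GNE-7883 it was lower for CDH2, by -0.45 ± 0.06 (adjusted p = 6.56e-06), and for CDH11, by -0.22 ± 0.065 (adjusted p = 0.00702), a call that both RPKM fits lost (adjusted p = 0.0694 and 0.0682), as did leaving out resistant GNE-7883 replicate 1 (0.0524) or 2 (0.0616).

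Set together, GNE-7883 moved 5 of the 10 in sensitive cells, raising ZEB2, CDH2 and CDH11 and lowering TWIST2 and VIM, beside 58.1% of all tested genes called, 29.8% as risen and 28.4% as fallen. In resistant cells it raised CDH11 and changed none of the other 9 by the test, beside 9.22% of all genes called, 5.25% as risen and 3.97% as fallen. Without sensitive DMSO replicate 2, 5 of the 10 were called in resistant cells, CDH2 and CDH11 as risen and SNAI2, VIM and FN1 as fallen, beside 16.7% of all genes, and the fit on the 2 resistant groups called the same 5 beside 14.5%. Between lines in GNE-7883, 5 of the 10 rose and 3 fell, beside 61.9% of all genes called (30.7% as risen and 31.1% as fallen), with SNAI1, CDH2 and CDH11 the 3 that fell. The response to GNE-7883 itself differed between the lines for 6 of the 10, beside 35.7% of all genes (19.0% more positive and 16.7% less positive). It was more positive in the resistant line for TWIST2 (0.83 ± 0.17, adjusted p = 0.0012), SNAI1 (0.60 ± 0.21, adjusted p = 0.0355) and VIM (0.34 ± 0.095, adjusted p = 0.00983), and less positive for ZEB2 (-0.77 ± 0.15, adjusted p = 0.000709), CDH11 (-0.69 ± 0.092, adjusted p = 2.79e-05) and CDH2 (-0.58 ± 0.084, adjusted p = 5.95e-05). Without sensitive DMSO replicate 2 these differences were 0.71, 0.58, 0.26, -0.62, -0.60 and -0.51 in the same order, all still called. SNAI2 stood at -0.36 ± 0.15 (adjusted p = 0.0705, but 0.0282 without sensitive DMSO replicate 2 and 0.00518 without sensitive GNE-7883 replicate 1). The SNAI1 difference lost its call with DESeq2 (adjusted p = 0.0528) and without any one of sensitive GNE-7883 replicates 2 and 3, resistant DMSO replicate 3 and resistant GNE-7883 replicate 1, at adjusted p up to 0.0808.

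Windows of 250 bases before an annotated start were available from RefSeq (GRCh38.p14) for 6 of the 10 genes, 13 windows in all; SNAI1, SNAI2, TWIST1 and CDH11 are named only. They were searched on both strands for the E-box CACCTG bound by SNAIL and ZEB factors, the TEAD motif CATTCC and the AP-1 motif TGANTCA, which occur in 17.5%, 11.9% and 6.57% of all 35116 windows of this length. Stretches outside GENCODE exons are shown for a factor and a marker that fell with GNE-7883 in sensitive cells (TWIST2 and VIM), for the cadherin CDH2 that rose, and for FN1, which differed between the lines, 5′ to 3′ on the gene's strand, with searched motifs in capitals.
TWIST2, chr2:238847835-238848031, plus strand: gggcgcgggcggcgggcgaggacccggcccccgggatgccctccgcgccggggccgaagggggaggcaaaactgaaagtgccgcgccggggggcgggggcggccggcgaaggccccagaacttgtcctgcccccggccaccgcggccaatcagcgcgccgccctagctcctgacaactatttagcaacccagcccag
VIM, chr10:17227991-17228240, plus strand: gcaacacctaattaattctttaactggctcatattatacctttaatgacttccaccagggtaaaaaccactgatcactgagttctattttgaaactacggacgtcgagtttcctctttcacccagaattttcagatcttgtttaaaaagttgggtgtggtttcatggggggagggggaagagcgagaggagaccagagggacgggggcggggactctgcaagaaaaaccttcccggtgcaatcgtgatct
CDH2, second start, chr18:28036642-28036891, minus strand: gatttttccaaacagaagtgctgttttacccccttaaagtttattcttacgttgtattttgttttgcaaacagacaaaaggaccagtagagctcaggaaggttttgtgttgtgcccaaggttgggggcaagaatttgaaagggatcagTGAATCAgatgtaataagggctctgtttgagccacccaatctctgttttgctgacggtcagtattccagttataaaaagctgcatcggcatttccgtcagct
FN1, chr2:215436173-215436252, minus strand: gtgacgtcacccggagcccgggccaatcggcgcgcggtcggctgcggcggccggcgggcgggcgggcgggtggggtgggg
The VIM stretch was 46.0% G and C and the TWIST2 and FN1 stretches 75.6% and 85.0%. The window before the second CDH2 start, which lies inside the gene, held 1 AP-1 match, TGAATCA, 102 bases before that start. The 7 ZEB1 windows held 3 E-box matches, and the windows of VIM, FN1, TWIST2, ZEB2 and the first start of CDH2 held none of the 3 motifs. The TEAD letters were in none of the 13 windows. These matches describe the letters of these windows and say nothing of binding.

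Across the 12 libraries, which share 2 lines and 2 treatments and so are not independent, the log2 levels of the 10 genes fell into a few patterns. SNAI2 followed FN1 (Pearson r = 0.98), VIM (0.97) and TWIST1 (0.96), and ran opposite to SNAI1 (-0.89). VIM also followed TWIST2 (0.89). CDH2 followed CDH11 (0.90), CDH11 followed ZEB2 (0.82) and ZEB2 followed ZEB1 (0.80). Sensitive DMSO replicate 2 was lower than the rest of its group for ZEB1 (-0.64), ZEB2 (-0.49), CDH11 (-0.28) and CDH2 (-0.22). Its part in these correlations was not tested. CDH2 and TWIST2 ran opposite ways (-0.79). Among 10859 genes with a mean of at least 5 CPM, those closest to SNAI2 were BEND7 (0.9984) and ETV5 (0.9972), to FN1 KIF26B (0.9941) and HDAC9 (0.9935), to VIM RNF34 (0.9962) and DGKA (0.9959), and to SNAI1 CACNG4 (0.9467) and AGPAT4 (0.9461). The closest to TWIST1 was IER3 (0.9932), to TWIST2 LRR1 (0.985), to ZEB1 OTUD4 (0.9916), to ZEB2 ALCAM (0.9815), to CDH2 ERV3-1 (0.994) and to CDH11 HGSNAT (0.9938). ZEB1 varied mainly through sensitive DMSO replicate 2, at 30.8 CPM against 46.8 to 55.6 CPM in the other libraries. OTUD4 was also widely spread in the sensitive DMSO group, at 31.0 ± 7.86 CPM (SD, n = 3) with a minimum of 21.9 CPM.

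**Figure D3:**
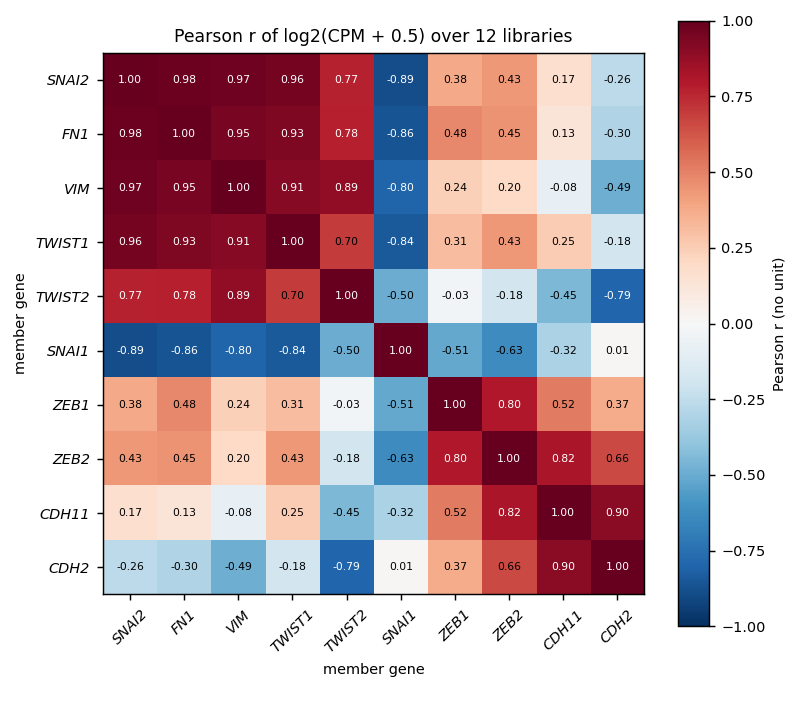
Pearson correlation of log2 CPM between each pair of the 10 genes over the 12 libraries (colour scale from -1 to 1). SNAI2, VIM, FN1 and TWIST1 formed one positive block, CDH2 and CDH11 correlated at 0.90, and SNAI1 was negative with SNAI2 at -0.89.

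The genes these factors act on, and their partners, were read from lists. CDH1 (E-cadherin), the classical target of SNAIL and ZEB repression, was named after its values were seen. It held 4.16, 2.64 and 3.89 CPM in sensitive DMSO, 0.529, 0.634 and 0.557 CPM in sensitive GNE-7883, 0.321, 0.0866 and 0.276 CPM in resistant DMSO and 0.188, 0.162 and 0.136 CPM in resistant GNE-7883 libraries. In DMSO the log2 difference of CDH1 between the resistant and sensitive lines was -3.99 ± 0.28. The resistant DMSO libraries held only 14, 4 and 9 CDH1 counts, near the floor of 3 counts. With the inhibitor CDH1 fell by 2.63 ± 0.24 in sensitive cells. Of the 6 factors, SNAI1, SNAI2, TWIST1 and ZEB1 were not called there, TWIST2 fell and ZEB2 rose. In the resistant line in DMSO, 24.2% of all tested genes rose and 24.4% fell, the shares beside which the list counts of that comparison stand. Of 19 tested epithelial junction and regulator genes, 2 rose and 13 fell (median -0.66, against 0.00 over all genes), among them the epithelial factor ELF3 (-4.84) and the tight-junction scaffold TJP3 (-2.47), with the claudin CLDN1 higher (0.34). Of 14 tested cadherins and catenins besides the members, 1 rose and 10 fell (median -0.69), with CDH1 and JUP also counted among the epithelial genes. CDH4 stood at 0.53, CDH6 at -1.98 and plakoglobin JUP at -1.07.

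Other mesenchymal markers were called in both directions in that comparison: of 27 tested, 12 rose and 10 fell (median 0.04), both above the shares of all genes. The fibroblast markers counted above are all in this list too, so the 2 counts are not separate observations. The collagen crosslinker LOX (1.93) and endoglin ENG (1.71) rose, whereas the fibrillar collagen COL3A1 (-4.62) and the PDGF receptor PDGFRB (-2.26) fell. COL3A1 held only 25 counts over the 3 resistant DMSO libraries, with a minimum of 0.0614 CPM, near the floor of 3 counts. Its mean in sensitive DMSO cells was 5.08 CPM. Of 21 further EMT factors and cofactors, 7 rose and 6 fell, with the chromatin protein HMGA2 at 5.13 ± 0.087, SOX9 at 2.29, and the helix-loop-helix inhibitors ID1 and ID3 at -2.43 and -1.61. Of 20 TGF-beta pathway genes, 8 rose and 7 fell, with the activin subunit INHBA at 3.92 and its antagonist FST at 2.94, the ligand BMP4 at -1.65 and the matrix protein TGFBI at -1.16. Of 18 fibronectin receptors and partners, 5 rose and 7 fell, with the urokinase receptor PLAUR at 0.81, the integrin subunit ITGB1 at 0.65, fibulin FBLN2 at -1.79 and syndecan SDC4 at -0.86. Of 15 other intermediate filament genes, 3 rose and 8 fell (median -0.91), with SYNC at 0.54 and KRT5 at 0.39, as VIM higher, and KRT80 at -1.76 and the simple-epithelial keratin KRT18 at -1.19.

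With GNE-7883 in sensitive cells, 29.8% of all tested genes rose and 28.4% fell. Of the 19 epithelial genes 5 rose and 7 fell, near those shares, with ELF3 at 1.68 and CLDN1 at 1.22 against the splicing factor ESRP2 at -1.33 and occludin OCLN at -1.07. Of the 14 cadherins and catenins 3 rose and 6 fell, with JUP at 0.95 and the catenin CTNND1 at 0.34 against CDH4 at -1.48 and CDH6 at -1.20. Of the 27 other mesenchymal markers 11 rose and 12 fell, with PDGFRA at 3.13 and the gelatinase MMP2 at 2.75 against the contractile gene TAGLN at -2.18 and LOXL2 at -1.34. Of the 21 further EMT factors 8 rose and 7 fell, with SOX4 at 1.71 and ID2 at 1.32 against ETS1 at -0.89 and TCF3 at -0.49. Of the 20 TGF-beta pathway genes 11 rose and 5 fell, with the inhibitory SMAD6 at 0.79 and SKIL at 0.70 against INHBA at -1.33 and BMP4 at -0.79. Of the 18 fibronectin partners 8 rose and 6 fell, with FBLN2 at 1.07 and ITGAV at 0.81 against the syndecans SDC1 at -1.77 and SDC2 at -0.91. Of the 15 filament genes 10 fell and none rose (median -0.58), the direction of VIM, with LMNB2 at -1.56 and KRT5 at -1.38. The response of these 15 was more positive in the resistant line for 11 and less positive for none, beside 19.0% and 16.7% of all genes. Of 23 YAP and TEAD targets 18 fell and 2 rose in sensitive cells, and 7 fell and none rose in resistant cells, where 3.97% of all genes fell and 5.25% rose. The mitochondrial share of counts was 0.954% to 1.09% in sensitive GNE-7883 libraries and 0.522% to 0.693% in the others, and its part in these responses was not tested.

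**Figure D4:**
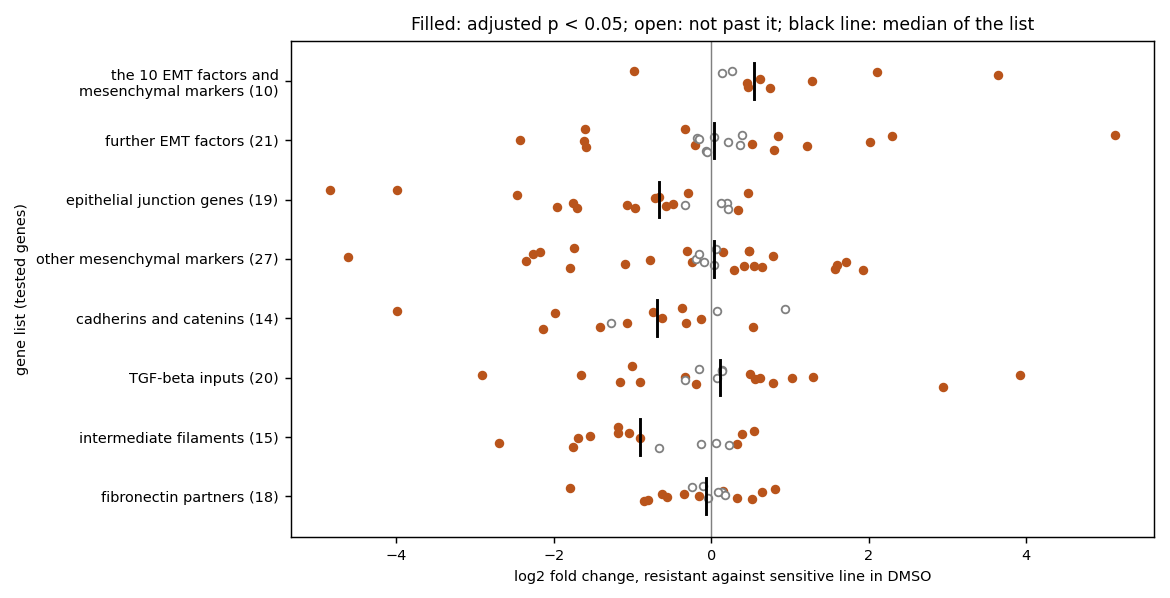
Log2 difference between the resistant and sensitive lines in DMSO (x axis) of each tested gene of 8 lists (rows on the y axis, number tested in parentheses); filled points passed an adjusted p of 0.05, open points did not, and black lines are list medians. The 10 genes had a median of 0.54, the epithelial junction genes -0.66 and the other mesenchymal markers 0.04.

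VIM lies on the short arm of chromosome 10, where many tested genes moved the same way between the lines. In the 10 to 30 Mb interval around it, a span chosen after values were seen, 48 of 88 other tested genes rose and 8 fell in the resistant line in DMSO (median 0.48), beside 24.2% and 24.4% of all tested genes. With GNE-7883, 55 rose and 14 fell (median 0.66), beside 30.7% and 31.1% of all genes, and 5 and 4 of the 88 stood above VIM in the 2 comparisons. GNE-7883 in sensitive cells gave 22 risen and 30 fallen there (median -0.07), beside 29.8% and 28.4%. ZEB1, further along the same arm, stood at 0.26 and was not called. DNA copy number was not measured, and its part in the VIM difference was not tested. The library kit does not mark strand, so reads from a gene and an overlapping antisense gene cannot be told apart. The antisense gene ENSG00000234961 held 1.8% of the VIM count, at 14.5 ± 2.14 CPM in sensitive and 36.6 ± 3.3 CPM in resistant DMSO cells (SD, n = 3), and ZEB1-AS1 held 6.12% of the ZEB1 count. Every other gene overlapping one of the 10 held less than 1% of its count. The vimentin pseudogene VIM2P held 167 counts over all libraries.

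**Figure D5:**
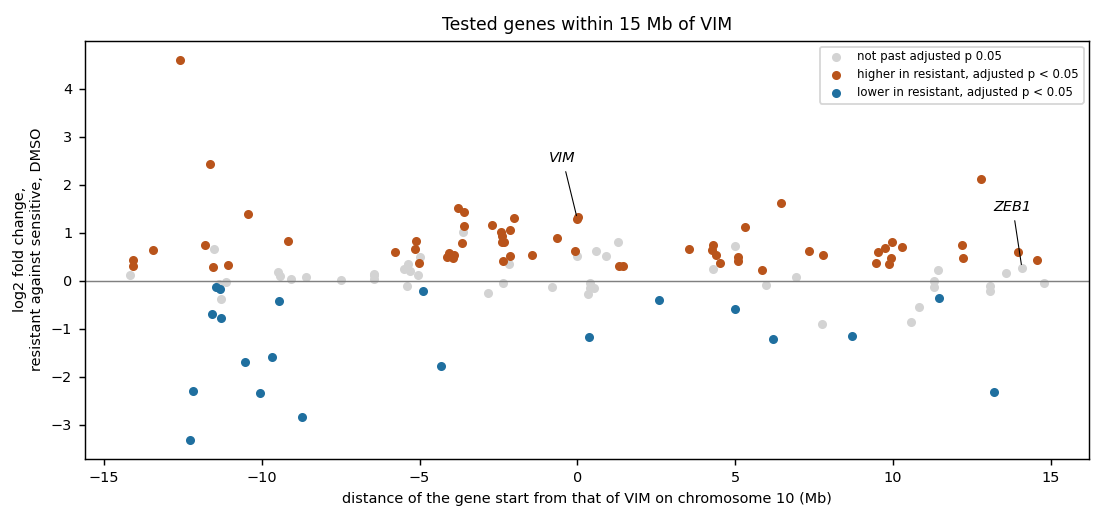
Log2 difference between the resistant and sensitive lines in DMSO (y axis) of tested genes by distance from VIM in megabases (x axis), each point 1 gene, coloured by whether it rose, fell or was not called. VIM stood at 1.28 and the 88 other genes of the 10 to 30 Mb interval had a median of 0.48.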

How the data were processed

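RNA-seq libraries from 2 cell lines under 2 treatments (4 groups, 3 libraries each) were read as 50-base single-end reads, per the labels' protocols. The authors deposited raw counts per gene and RPKM values; GSNAP, limma and GRCh38.p10 are named in the submitters' processing notes, which do not say how reads were counted, with which annotation or with what strand setting. The deposited RPKM values were used for levels between genes and as an alternative. Totals were 31878934 to 46962645 counts, so a floor of 3 counts is 0.0639 to 0.0941 CPM, covering counting error only. Symbols came from a gene names table and coordinates from GENCODE 29 (GRCh38), which may differ from the authors' annotation. CPM values are scaled by TMM, except those of the floor.

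Counts were fitted over all 4 groups with edgeR 4.0.16 (R 4.3.3; TMM, default low-count filter, quasi-likelihood test, 8 residual degrees of freedom, Benjamini-Hochberg adjustment over 18035 genes, calls at 0.05), for both treatments, both line differences and their interaction. The fit was tried on simulated counts for GNE-7883 in sensitive cells only, with the same spread set for every gene and no outlying library. It recovered 73.5% of changed genes at a log2 change of 0.5 and 100% at 1 and 2. Of 17430 unchanged genes, 10 were called. The changed genes had a mean of at least 5 CPM, so lower genes such as SNAI1 were not covered. Alternatives were DESeq2 1.42.0, its size factors, no filter, a filter of 5 CPM, limma 3.58.1 on log2(RPKM + 0.1) and log2(RPKM + 1), the 2 groups alone, a replicate block, and each library left out. By rule, the 2 called genes with the largest change in each direction and at least 5 CPM in a group compared are named from each of the 7 gene lists, here for the line difference in DMSO and GNE-7883 in sensitive cells. The 10 genes, the lists and the tests were chosen with earlier results of these data known.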

Additional observations from a re-analysis of the deposited data

Results flagged for a closer look

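The response to GNE-7883 differed between the lines, by a test of the difference itself (edgeR interaction term, resistant minus sensitive, log2), for 6 of the 10 genes. Of all tested genes 35.7% were called in this test, 19.0% as more positive and 16.7% as less positive. The difference was 0.83 for TWIST2 and 0.34 for VIM, which fell in sensitive cells and were not called in resistant cells, and 0.60 for SNAI1, which was called in neither line. It was -0.77 for ZEB2, -0.69 for CDH11 and -0.58 for CDH2, which rose in sensitive cells, CDH11 alone being called in resistant cells too. The SNAI1 difference lost its call under 5 of 18 alternatives.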

How the results depend on the processing

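Of the 50 values of the 10 genes (5 comparisons), 28 were called. Among all tested genes, GNE-7883 gave 58.1% called in sensitive and 9.22% in resistant cells. Between lines 48.7% were called in DMSO and 61.9% in GNE-7883, and 35.7% were called for the response difference. Of the 28 called values, 24 kept direction and call under each alternative that could be run, including each of the 12 libraries left out. The exceptions were SNAI1 between lines in GNE-7883 and in its response difference, and CDH11 in resistant cells and between lines in GNE-7883. Of the 22 not called, 11 were called under at least 1 alternative. Signs reversed for ZEB1 between lines in GNE-7883 with the 5 CPM filter (-0.01) and, when 1 library was left out, for ZEB1 (-0.02 to 0.29) and FN1 (-0.27 to 0.02) in sensitive cells, for TWIST1 in resistant cells (-0.04 to 0.10) and for the TWIST1 response difference (-0.15 to 0.01). The ZEB1 sign turned without sensitive DMSO replicate 2, that of FN1 without sensitive DMSO replicate 3, and those of TWIST1 without resistant DMSO replicate 1, 2 or 3 or resistant GNE-7883 replicate 1. None of these reversed values was called, and the cause was not tested. In resistant cells given GNE-7883, no filter gave 1 of the 10 fallen, and the fit on the 2 groups gave 2 risen and 3 fallen, with 1131 genes fallen in all against 716. Leaving out 1 library there gave 0 to 2 of the 10 risen and 0 to 3 fallen, and 549 to 1649 genes risen and 304 to 1411 fallen, the highest counts without sensitive DMSO replicate 2. Between lines in GNE-7883, both RPKM fits gave 1 of the 10 fallen and leaving out 1 library 1 to 4. Between lines in DMSO, the 5 CPM filter removed SNAI1 and gave 0 fallen. The replicate block changed none of the 50 calls, and gave 807 genes risen and 565 fallen in resistant cells. Deviations from the group means correlated at -0.274 to 0.326 between same-numbered libraries of different groups. Between differently numbered libraries they correlated at -0.327 to 0.274. These ranges overlap and cannot decide whether the numbers pair the samples.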
